A study of Mus musculus with 4 samples.

Results

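The 80 genes described here encode the proteins of the cytosolic ribosome. They are the genes whose symbol in the deposited gene list starts with Rpl or Rps followed by a number and at most 1 closing letter (a, x, y or l), together with Rpsa, Rplp0, Rplp1 and Rplp2, with pseudogene symbols left out. They are 80 of 31253 genes in the list, and no measured value entered their choice. Levels were read as unique molecular identifiers (UMIs, each standing for 1 captured RNA molecule) in cell barcodes in which 200 or more genes were detected and no more than 10% of UMIs were mitochondrial. Symbols and identifiers pair as in the deposited list, for example Rpl13a with ENSMUSG00000074129, Rps10 with ENSMUSG00000052146, Rps18 with ENSMUSG00000008668, Rps28 with ENSMUSG00000067288 and Rps29 with ENSMUSG00000034892.

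The study profiled CT26 tumours, which grow from a mouse colon carcinoma line, and the lymph nodes draining them (TDLN), by single-cell RNA-seq. NanoCa is, in the series title, a lipid nanoparticle built around a calcium crystal. There were 4 groups of female mice aged 4 to 8 weeks, with 1 library each: tumour under NanoCa or mock, and TDLN under NanoCa or mock. Neither the strain nor the number of mice per library is stated in what was read here. The mock libraries carry a tag for no treatment, but NanoCa also stands in the field for the treatment protocol of all 4, so every comparison of NanoCa with mock rests on the names and tags. All 4 libraries carry the same batch tag. The cells were stained for CD45 and sorted, with no gate stated, and the labels call the tumour cells infiltrating immune cells.

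Ribosomal protein genes are among the most strongly expressed genes of any growing cell, because each ribosome needs a copy of nearly every protein of its small and large subunits. Their mRNAs carry a terminal oligopyrimidine tract, a C followed by a run of C and T at the very start of the transcript, through which mTOR and LARP1 set their translation and stability. Resting lymphocytes keep a large store of these mRNAs. A few members have a paralogue that is used in certain tissues, among them Rpl39l, best known from the testis, and Rps27l, a target of p53.

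The start of the gene carries that shared signal, so the windows of 30 bases around it (15 on each side) are printed for members on which the results turn. They come from RefSeq, build GRCm38.p6, in which 60 of the 80 members were found with 72 start sites, among 32851 promoters. Capitals mark the longest run of C and T that begins with a C within 10 bases of the start, where it is at least 5 bases long. Rpl13a, Rps10 and Rps18 are members that were called lower in NanoCa than in mock in 5 of 6 TDLN classes.
Rpl13a, chr7:45128731-45128760, minus strand: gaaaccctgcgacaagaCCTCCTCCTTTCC
Rps10, chr17:27635230-27635259, minus strand: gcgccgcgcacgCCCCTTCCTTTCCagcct
Rps18, chr17:33955651-33955680, minus strand: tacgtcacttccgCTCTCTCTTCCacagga
Rps28, Rpl38 and Rpl41 were lower in tumour NanoCa than in tumour mock.
Rps28, chr17:33824548-33824577, minus strand: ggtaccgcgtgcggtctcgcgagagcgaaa
Rpl38, chr11:114668565-114668594, plus strand: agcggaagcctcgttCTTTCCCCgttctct
Rpl41, chr10:128549154-128549183, minus strand: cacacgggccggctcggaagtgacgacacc
The run was 14 bases long in Rpl13a, where it goes on past the window, 13 in Rps10, 11 in Rps18 and 8 in Rpl38. In Rps28 and Rpl41 the longest run was 3 bases, so nothing is in capitals. Among other members lower in tumour NanoCa, it was 9 in Rps27, 8 in Rpl39 and 3 in Rpl37 and Rpl37a. Rps29 was not among the members found in RefSeq. Such a run of 5 or more bases was found at 40 of the 72 start sites of members (55.6%) and at 30.7% of all promoters. In the 300 bases that RefSeq gives per promoter, CGGAAG on either strand, the core letters of an ETS factor site, was in 61.1% of the members' sites and in 16.9% of all promoters. TATAAA on the gene's strand was in 6.94% against 8.32%. These are matches of letters and say nothing of binding.

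The filters kept 11215 (NanoCa) and 9281 (mock) tumour barcodes and 11013 and 10268 TDLN barcodes, with medians of 4238 to 12629 UMIs. Any 2 libraries shared 120 to 179 kept barcodes. Removing likely doublets left 10209, 8592, 10043 and 9425 cells in 24 tumour and 25 TDLN clusters, named from markers, with the ribosomal protein genes left out of the clustering. Most tumour cells (6239 of 10209 and 5136 of 8592) went against the label of immune cells. Ptprc, the gene of CD45, was at 2.13 and 2.42 CPM (UMIs of a gene with the class's total scaled to 1 fixed size) in them, against 515 and 523 in tumour T cells, and Xist was at 0.971 and 1.33. They are called Xist-low Ptprc-low cells here. The summed level of 12 carcinoma markers was 832 and 758 in them, against 271 and 207 in tumour T cells. Rhox5 was at 339 and 341, Krt18 at 39.7 and 21.8 and Krt8 at 15.6 and 2.23, and 9 of the 12 were above 0 in mock. Fibroblast markers were also higher in them, at 503 and 502 against 211 and 165. So were those of plasmacytoid dendritic cells, at 572 and 699 against 410 and 345, and these sums do not name the cells. A tumour cluster of 144 and 255 cells met the same 2 limits but was led by the neutrophil genes S100a9 and S100a8, and it was left unnamed after its genes were seen. Classes with at least 100 cells in both libraries of a tissue were compared, 5 in the tumour and 6 in TDLN. The main cluster of a class was not always the same in both libraries. Of the Xist-low Ptprc-low cells in the tumour, it was cluster 0 in NanoCa (1218 cells) and cluster 3, led by the matrix genes Ogn, Apod and Dcn, in mock (921 cells). In TDLN T cells it was cluster 3 in NanoCa (1812 cells) and cluster 1 in mock (1769 cells). Cluster 9 of the tumour Xist-low Ptprc-low cells was led by interferon-induced genes (Apol9a, Isg15, Ifit1), and cluster 12 of the tumour monocytes or macrophages by Cxcl3, Cxcl2 and Il1b.

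Ribosomal protein genes gave about 3 in 10 UMIs of every library. Their share of the UMIs of all cells was 29.99% in NanoCa and 31.3% in mock in the tumour, and 27.3% and 26.9% in TDLN. The share differed far more between cell classes than between treatments. With no replicate there is no test of any difference, and the 95% intervals given below (exact Clopper-Pearson for a share, exact conditional binomial for a ratio) cover counting error only.

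Of the classes compared, T cells and Xist-low Ptprc-low cells had the largest share of UMIs from these genes. In T cells the share was 29.7% in tumour NanoCa, 30.9% in tumour mock, 30.005% in TDLN NanoCa and 30.4% in TDLN mock. In Xist-low Ptprc-low cells it was 30.8%, 32.3%, 28.4% and 27.6% in the same order. B cells held 26.5%, 27.1%, 23.1% and 23.0%. NK cells, cytotoxic lymphocytes of the innate arm, held 24.7%, 26.0%, 21.3% and 21.5%. Monocytes or macrophages held 17.2%, 16.7%, 17.0% and 14.0%, and mature dendritic cells (DC) of TDLN held 16.3% in NanoCa and 18.4% in mock, so that monocytes or macrophages were the lowest class compared in every library but TDLN NanoCa, where mature DC were. Among classes too small for a comparison, tumour neutrophils held 16.4% and 16.2%, and plasmacytoid DC held 16.3% to 19.2% over the 4 libraries. The order of the classes was T or Xist-low Ptprc-low cells first, then B cells, then NK cells, then the myeloid classes in all 4 libraries, except that Xist-low Ptprc-low cells and T cells changed places between the tissues.

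**Figure D1:**
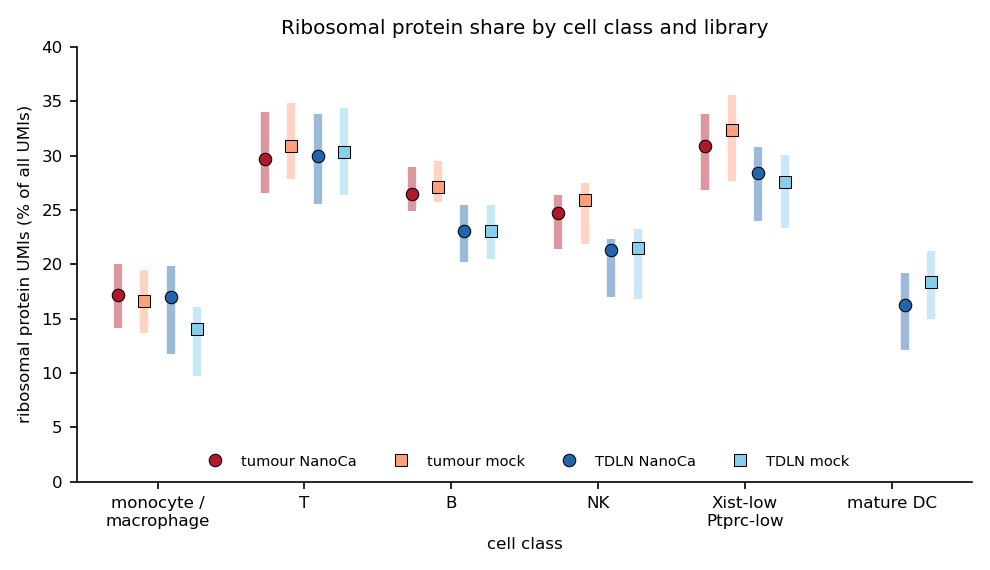
Share of UMIs from the 80 ribosomal protein genes (y axis, percent of all UMIs of the class) by cell class and library. Symbols give the share of the summed UMIs and bars the middle 50% of single cells, so the step from monocytes or macrophages (14.0% to 17.2%) to T cells (29.7% to 30.9%) is larger than any step between treatments.

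Within a class single cells spread widely. In TDLN T cells the middle 50% of cells ran from 25.6% to 33.8% in NanoCa and from 26.4% to 34.4% in mock. Part of that spread lay between clusters of T cells. The Cd8a-high cluster 2 held 33.4% in NanoCa and 33.8% in mock, and the Cd4-high cluster 1 held 32.5% and 32.3%. The Foxp3-high cluster 5, Foxp3 being the factor of regulatory T cells, held 25.5% and 26.3%. Cluster 7, in which Pdcd1 was at 173 CPM, held 25.4% and 24.3%. B cell cluster 0 of TDLN held 23.9% and 24.4%. Clusters with high Malat1, a nuclear RNA, were lowest within their class. TDLN T cluster 8, with Malat1 at 11976 CPM, held 9.07% and 10.7%, and tumour cluster 6 of the Xist-low Ptprc-low cells, with Malat1 at 11503, held 10.4% and 8.31%. Barcodes removed for over 10% mitochondrial UMIs were also low, with medians of 11.3% to 16.9% against 26.9% to 29.3% in kept barcodes.

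The balance of the subunits followed the class too. The ratio of small-subunit to large-subunit UMIs was 0.866 in TDLN T cells of both treatments and 0.807 and 0.794 in tumour T cells. It was 0.680 and 0.683 in TDLN Xist-low Ptprc-low cells and 0.682 and 0.672 in those of the tumour. B cells lay between, at 0.834 and 0.823 in TDLN and 0.788 and 0.779 in the tumour.

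NanoCa and mock differed little in the total share. In the tumour the share was lower in NanoCa in 4 of 5 classes. The log2 ratio was -0.054 (-0.059 to -0.049) in T cells, -0.036 (-0.044 to -0.028) in B cells, -0.070 (-0.078 to -0.062) in NK cells and -0.068 (-0.069 to -0.067) in Xist-low Ptprc-low cells. Monocytes or macrophages went the other way with 0.046 (0.042 to 0.050). Cells of tumour NanoCa were also shallower in all 5 classes, for example a median of 1957 against 2396 UMIs in T cells. With each cell thinned to 1000 UMIs the median log2 ratio over the 5 classes was -0.038, against -0.054 with all UMIs. In TDLN the ratio was -0.017 in T cells, 0.0031 in B cells, -0.014 in NK cells and 0.044 in Xist-low Ptprc-low cells, at most 1.03-fold. The 2 small myeloid classes of TDLN differed more, in opposite directions. Monocytes or macrophages (131 and 210 cells) had 0.28 (0.27 to 0.28), and mature DC (109 and 129 cells) had -0.18 (-0.19 to -0.17). In those monocytes or macrophages the summed neutrophil markers were at 1549 in NanoCa against 555 in mock, the T cell markers at 194 against 59.97 and their own markers at 18777 against 25743 CPM. With doublets kept the ratio turned to -0.034. The part of these other cells in the share was not tested.

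Single members were then compared as CPM of the summed cells of a class. Members with 50 or more UMIs in the 2 libraries together were tested, and a member was called where CPM differed by at least 1.5-fold and the interval of the ratio excluded 1. A member departed where it lay at least 1.5-fold from the median ratio of all members, which separates it from a shift of the whole set. Of the 80 members, 77 or 78 passed the 50 UMIs in each comparison of NanoCa with mock. Rpl3l and Rpl10l never did. Apart from Rpl39l, every member that passed had over 100 UMIs in each of the 2 libraries compared.

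In the tumour, 9 or 10 of the 11 shortest members (coding length up to 300 nt) were lower in NanoCa in each class, and only Rps29 in Xist-low Ptprc-low cells passed the limits. Calls were 1 of 78 there, where 3.73% of 13744 genes were called lower and 9.49% in either direction, and 0 of 78 members in monocytes or macrophages, T, B and NK cells, where 10.3%, 9.27%, 10.4% and 7.68% of genes were called. The members' share of calls lay below this background in each class. No member was called higher.

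Rps29, a zinc-binding protein in the head of the small subunit, was at 2369 CPM in tumour NanoCa and 3679 in tumour mock in Xist-low Ptprc-low cells, with a log2 ratio of -0.64 (-0.64 to -0.63). In T cells it was at 3292 and 4644 (-0.50), in B cells at 2771 and 3988 (-0.53), in NK cells at 2201 and 3214 (-0.55) and in monocytes or macrophages at 2228 and 2818 (-0.34). Tumour mock was the higher library in each class. In TDLN the order was the other way in 5 of 6 classes, with 4480 in NanoCa and 4307 in mock in T cells (0.057) and 2932 and 2257 in Xist-low Ptprc-low cells (0.38). Mature DC of TDLN, at 2570 and 2813, were the exception.

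Rps28, a small-subunit protein at the path by which mRNA leaves, followed Rps29. It was at 3173 CPM in tumour NanoCa and 4398 in tumour mock in T cells, a log2 ratio of -0.47 (-0.52 to -0.43), and at 2676 and 3998 in Xist-low Ptprc-low cells (-0.58). TDLN T cells had 4020 in NanoCa and 3448 in mock (0.22). Across the 4 libraries tumour mock was highest and tumour NanoCa lowest in T cells.

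Rpl38, a large-subunit protein whose loss in mice disturbs the body plan through Hox mRNA translation, had 1736 CPM in tumour NanoCa and 2291 in tumour mock in T cells, a log2 ratio of -0.40 (-0.46 to -0.34). It had 1588 and 2332 in NK cells (-0.55), and 1929 in NanoCa and 1656 in mock in TDLN T cells (0.22). Tumour mock was again the highest library. Rpl41, the shortest protein of the ribosome, had 7412 and 8998 CPM in tumour T cells (-0.28) and 7148 and 5873 in TDLN T cells (0.28). Rps27 and Rps21, both of the small subunit, had median departures from the other members of -0.43 and -0.42 over the tumour classes and of 0.28 and 0.23 over those of TDLN.

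Some long members stood on the other side in the tumour. Rplp0, the base of the stalk that recruits translation factors, had 10479 CPM in NanoCa and 9008 in mock in the Xist-low Ptprc-low cells of the tumour, a log2 ratio of 0.22. Rpsa, also known as the laminin receptor, had 8035 and 7303 there (0.14). Neither of them reached 1.5-fold. Not all long members did so: Rpl4 and Rpl6 had median departures of -0.017 and -0.13 over the tumour classes.

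In TDLN, Rpl13a, Rps10 and Rps18 were lower in NanoCa than the bulk of the members, and Rpl39l, described with its paralogue below, was lower still in T and B cells. Each of the 3 was lower in NanoCa than in mock in all 6 classes, and called lower in 5 of them. Calls were 4 of 78 members in T cells, 4 of 78 in B cells, 3 of 77 in NK cells, 3 of 78 in Xist-low Ptprc-low cells and 4 of 77 in mature DC, all lower. The shares of all genes called lower were 7.86%, 8.46%, 5.69%, 6.57% and 4.81%, so the counts lay near those of genes at large. The same 3 members were called in each of these classes, which share their libraries. In all 6 TDLN classes together, 0 of 77 members and 0.981% of 3771 genes were called lower throughout. Monocytes or macrophages had 0 of 77 members called, where 8.52% of genes were called lower. There the 3 members departed from a set that was higher as a whole, where 19.2% of genes departed downward.

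Rpl13a is a large-subunit protein that is released from the ribosome after interferon gamma in the translational control of inflammatory mRNAs. In T cells it was at 378 CPM in tumour NanoCa, 314 in tumour mock, 398 in TDLN NanoCa and 748 in TDLN mock. TDLN mock alone was high, and the log2 ratio of NanoCa to mock was -0.91 (-0.94 to -0.88) in TDLN and 0.27 (0.12 to 0.42) in the tumour. B cells had 320, 275, 326 and 582, and Xist-low Ptprc-low cells 305, 270, 337 and 559 in the same order. In mature DC of TDLN it was at 195 in NanoCa and 397 in mock, a log2 ratio of -1.03.

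Rps10, a small-subunit protein that is tagged with ubiquitin when ribosomes collide, was at 784, 625, 1034 and 1832 CPM in T cells of the tumour (NanoCa, mock) and of TDLN (NanoCa, mock). The log2 ratio of NanoCa to mock was -0.83 (-0.85 to -0.80) in TDLN. Monocytes or macrophages had 409, 310, 499 and 713, and Xist-low Ptprc-low cells 784, 696, 909 and 1578. TDLN mock was highest and tumour mock lowest in each of these classes.

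Rps18, a small-subunit protein at the contact between subunits, was at 1401, 1324, 1306 and 2364 CPM in T cells of the same 4 libraries, with a log2 ratio of -0.86 (-0.88 to -0.84) in TDLN. Xist-low Ptprc-low cells had 1890, 1784, 1631 and 2864. In NK cells of TDLN it was at 919 in NanoCa and 1843 in mock, a log2 ratio of -1.003. TDLN mock stood above the other 3 libraries in each of these classes. Reads of Rps18 can be shared with processed copies: Rps18-ps6 had 651, 671, 729 and 478 CPM over all cells, lowest in the library where Rps18 was highest, so the count of Rps18 alone is uncertain to that extent.

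**Figure D2:**
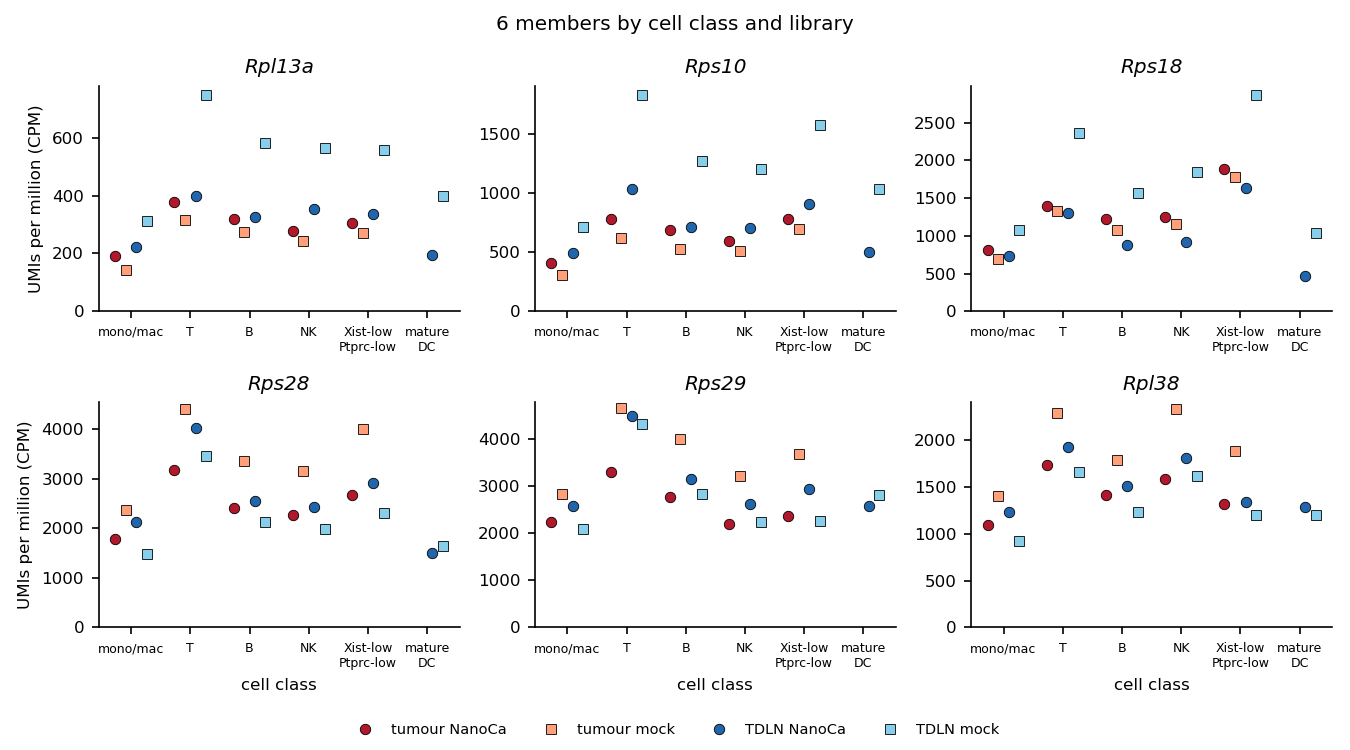
Level of 6 members (y axis, CPM, from 0) by cell class in the 4 libraries, 1 symbol per library. Rpl13a, Rps10 and Rps18 are highest in TDLN mock in every class compared (748, 1832 and 2364 in T cells), while Rps28, Rps29 and Rpl38 are highest in tumour mock in the 5 classes of both tissues (4398, 4644 and 2291 in T cells).

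The remaining calls in TDLN were Rpl39l in T and B cells and Rpl12 in mature DC. Rpl12, at the base of the stalk, had 435 CPM in NanoCa and 664 in mock there (log2 -0.61, -0.78 to -0.44), and 2123 and 2379 in TDLN T cells (-0.16).

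The same signs were seen cluster by cluster. Clusters with at least 100 cells in both libraries numbered 15 of 24 in the tumour and 13 of 25 in TDLN. Rpl13a, Rps10 and Rps18 were lower in NanoCa in 13 of 13 TDLN clusters, with log2 ratios of -1.22 to -0.50, -1.04 to -0.52 and -1.21 to -0.57, and higher in 15 of 15 tumour clusters. Rps28, Rps29 and Rpl38 were lower in NanoCa in 15 of 15 tumour clusters, with -0.65 to -0.14, -0.68 to -0.054 and -0.55 to -0.16. In TDLN they were higher in 12, 10 and 12 of the 13 clusters. The clusters of a tissue come from the same 2 libraries and are not replicates.

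Coding length went with the members' ratios in both tissues, in opposite directions and more weakly in most TDLN classes. Lengths were taken by gene identifier from GENCODE vM21, run from 75 nt in Rpl41 to 1257 nt in Rpl4, and have a median of 454.5 nt over the 80 members. Over the 77 or 78 members tested, Spearman's rho of coding length and the NanoCa to mock log2 ratio was 0.58 in monocytes or macrophages, 0.63 in T cells, 0.56 in B cells, 0.58 in NK cells and 0.66 in Xist-low Ptprc-low cells of the tumour. In TDLN it was -0.28, -0.41, -0.40, -0.58 and -0.39 in the same order and -0.50 in mature DC. These correlations run over genes of the same 2 libraries and describe those libraries. The sign held within clusters, from 0.44 to 0.71 in 15 of 15 of the tumour and from -0.58 to -0.24 in 13 of 13 of TDLN. The other genes did not share it, with rho from -0.12 to -0.034 in the tumour and from 0.092 to 0.31 in TDLN.

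The 11 members of up to 300 nt carried most of the tumour pattern. Their median log2 ratio was -0.40 in tumour T cells and -0.50 in tumour Xist-low Ptprc-low cells, where the 46 members of 301 to 600 nt had -0.014 and -0.058 and the 21 longer members 0.047 and 0.033. Other genes of up to 300 nt had -0.015 (203 genes) and 0.0076 (289 genes) in the same classes. In TDLN the short members had 0.12 in T cells, 0.20 in B cells and 0.28 in Xist-low Ptprc-low cells, and the long members -0.11, -0.10 and -0.024. In NK cells these medians were 0.20 and -0.13. In mature DC they were -0.016 and -0.28, with 7 of 10 short members lower in NanoCa. In monocytes or macrophages they were 0.44 and 0.26, with 0.23 for the members of 301 to 600 nt. Among the short members, the paralogues Rpl39l and Rps27l did not follow in the tumour, with median departures of 0.14 and 0.084. In TDLN Rpl39l had the lowest median of all members, -1.11 over the 3 classes in which it was tested. That value reflects T and B cells, and in Xist-low Ptprc-low cells, where its level was highest, Rpl39l departed by only -0.27. Rps27l was at 0.013. In TDLN the median departures of Rpl13a, Rps10 and Rps18 were -0.78, -0.79 and -0.83, below members of like length.

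**Figure D3:**
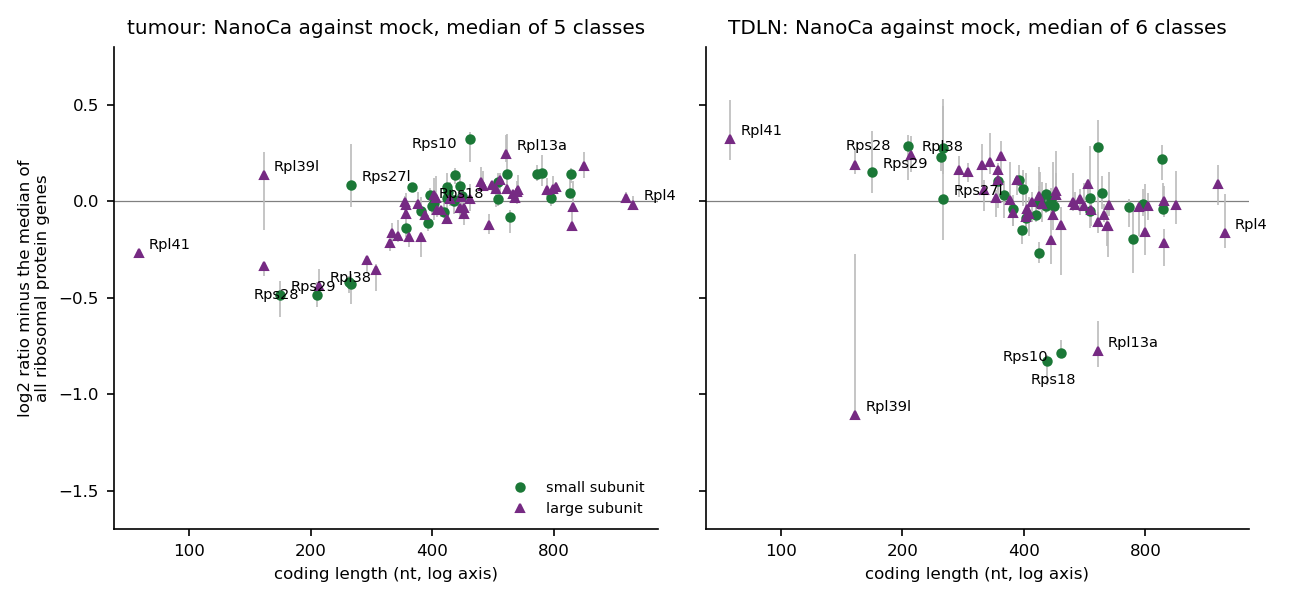
Departure of each member from the members' median log2 ratio of NanoCa to mock (y axis) against its coding length in nt (x axis, log scale), tumour left and TDLN right; points are medians over classes and grey bars run from the lowest to the highest class. Most short members lie below 0 in the tumour (Rps28 and Rps29 at -0.49) and above 0 in TDLN (0.29 and 0.15), except Rpl39l and Rps27l, which lie above 0 in the tumour (0.14 and 0.084). Rpl39l (-1.11), Rps18, Rps10 and Rpl13a lie far below the rest in TDLN only, though the bar of Rpl39l reaches up to -0.27 in Xist-low Ptprc-low cells.

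Many members kept the same side in every class of a tissue. Of 78 members tested in all 5 tumour classes, 48 departed from the members' median in 1 direction throughout (22 upward and 26 downward), and 36 of 77 did so in the 6 TDLN classes (19 and 17). There were 15 members below the median in every tumour class and above it in every TDLN class: Rpl22, Rpl34, Rpl35a, Rpl36, Rpl37, Rpl37a, Rpl38, Rpl39, Rpl41, Rps15a, Rps21, Rps26, Rps27, Rps28 and Rps29, of 75 to 390 nt. The opposite pattern was shown by 8 members, Rpl13, Rpl13a, Rpl15, Rpl8, Rps10, Rps18, Rps6 and Rps9, of 456 to 771 nt. No such count over all genes is given here, and the classes of a tissue share their libraries. Whether members kept 1 side more often than other genes is therefore not known. Most of these departures were small. At 1.5-fold only Rps29 in tumour Xist-low Ptprc-low cells departed in the tumour, where 9.60% of genes did.

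**Figure D4:**
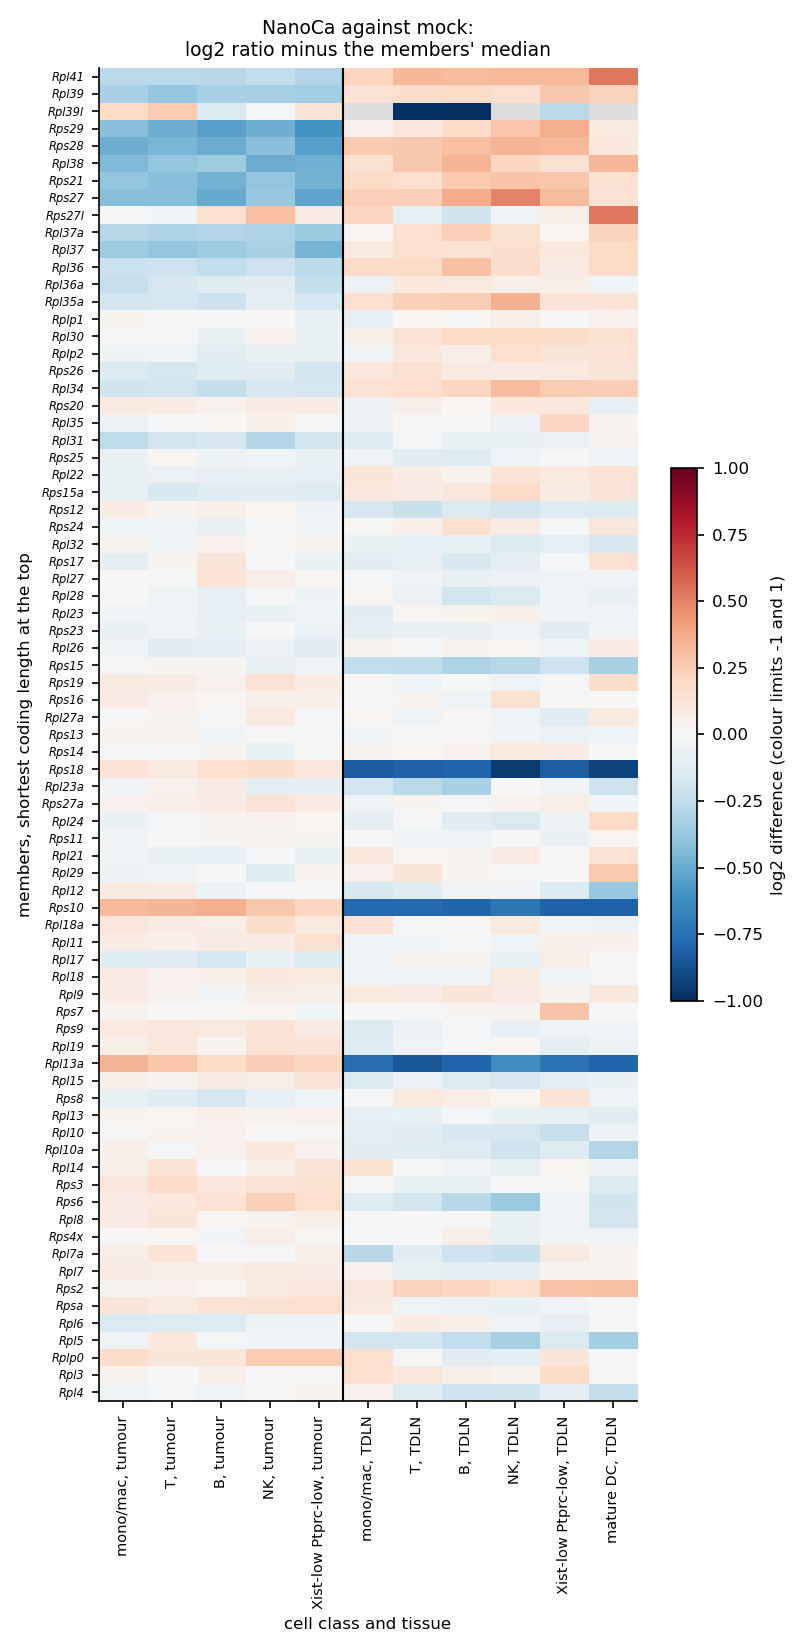
Heat map of the departure of the tested members reported here (rows, shortest coding length at the top) from the members' median log2 ratio of NanoCa to mock in each class (columns, tumour left and TDLN right of the line), grey where under 50 UMIs were counted. Most short members at the top are blue in the tumour and red in TDLN, and the dark blue bars of TDLN are Rps18, Rps10, Rpl13a and, in T and B cells, Rpl39l (-1.13 and -1.11, limited to -1 by the colours).

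Tumour and TDLN were then set against each other within a class, separately for the NanoCa and the mock pair. The mock pair shares its libraries with the comparisons of NanoCa and mock, so the values are given side by side only. B cells, NK cells and Xist-low Ptprc-low cells held a larger ribosomal share in the tumour, with log2 ratios of 0.20, 0.21 and 0.12 in the NanoCa pair and 0.24, 0.27 and 0.23 in the mock pair. T cells hardly differed, with -0.013 and 0.023. Monocytes or macrophages had 0.017 and 0.25, but with doublets kept these turned to -0.26 and -0.31. RNA from lysed cells that was captured with every cell (free RNA) moves with the tissue. Its estimated part of the UMIs, from carcinoma markers in immune classes, was 28.4% and 22.9% in tumour T cells, 28.0% and 32.6% in tumour B cells, 14.9% and 15.2% in tumour NK cells and 11.8% and 11.4% in tumour monocytes or macrophages, against 4.44% to 13.1% in the TDLN classes compared. With free RNA subtracted the median over the classes was 0.15 in place of 0.24 in the mock pair and 0.12 as before in the NanoCa pair, where monocytes or macrophages turned to -0.093.

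In the NanoCa pair few members departed. Rpl39l did so furthest, with log2 ratios of 3.14 in T cells, 3.44 in B cells and 2.62 in monocytes or macrophages. In the immune classes of the mock pair its ratios were 1.72 to 2.42. It was called in Xist-low Ptprc-low cells of neither pair. Its estimated level from free RNA is given with its paralogue below. Rps12 and Rps15, both near the decoding side of the small subunit, had 3967 and 885 CPM in tumour T cells and 2483 and 569 in TDLN T cells, log2 ratios of 0.68 and 0.64. Rps27, lower in the tumour, had 4214 in tumour and 6746 in TDLN T cells of NanoCa (-0.68). Members called numbered 6 in T cells, 7 in B cells, 3 in NK cells, 1 in monocytes or macrophages and 0 in Xist-low Ptprc-low cells, where 32.1%, 24.0%, 30.5%, 24.9% and 15.4% of genes were called. In the mock pair Rps10, Rpl13a and Rps18 were the lowest members in the tumour in all 5 classes. In T cells their log2 ratios were -1.55, -1.25 and -0.84, with TDLN mock the library high in all 3 genes. Members called in the mock pair numbered 7 in T cells, 9 in B cells, 14 in NK cells, 10 in monocytes or macrophages and 11 in Xist-low Ptprc-low cells, where 31.2%, 18.9%, 20.8%, 22.9% and 17.5% of genes were called. The members' share lay below that of genes at large in each of these 10 comparisons. Those higher in the tumour included Rpl37 with 0.63 in T cells and Rps28 with 0.79 in Xist-low Ptprc-low cells. In the mock pair rho of coding length and log2 ratio was -0.74 to -0.67 over the classes, and in the NanoCa pair -0.041 to 0.17.

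The mix of ribosomal protein mRNAs differed between classes for a minority of members. Each member was put on the CPM scale with only the members' UMIs as the total (member CPM), so that the share of the whole set drops out, and the highest class was divided by the lowest in each library. The ratio reached 1.5-fold in both libraries for 8 of 78 members in the tumour and 29 of 77 in TDLN, and 2-fold for 3 and 6. The median over members was 1.23 in the tumour and 1.41 in TDLN. TDLN has the mature DC as a further class, and with clusters high in Malat1 left out, which removes that class, 19 TDLN members reached 1.5-fold.

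Rps27 and Rps27l, which encode closely related zinc-finger proteins of the small subunit, had different patterns in the tumour. On this member CPM scale, Rps27 was at 14173 in T cells and 6312 in Xist-low Ptprc-low cells of tumour NanoCa, and at 18493 and 8901 in tumour mock. Rps27l was at 815 and 1576 in NanoCa and 806 and 1451 in mock in the same classes, and highest in tumour monocytes or macrophages with 2216 and 2191. In TDLN Rps27l ran from 450 and 488 in T cells to 5799 and 4170 in mature DC, a spread of 12.9-fold in NanoCa and 8.55-fold in mock and the widest there of the members with at least 10 UMIs in every class. Rpl39l, which had fewer in some, was at 772 and 954 in Xist-low Ptprc-low cells of TDLN and at 19.7 and 49.6 in its lowest class, NK cells (3 and 14 UMIs). On the same scale Rps27 was high in mature DC of TDLN as well, above the T cells of TDLN, with 25045 and 23584 in NanoCa and mock.

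The coding sequences show how far the paralogues differ in their coding bases. Where reads lay on the transcripts was not examined, so they do not say how well reads tell the paralogues apart. They are taken from GENCODE vM21 (GRCm38), with the bases at which the 2 sequences of a pair differ in capitals. Rps27 lies on the minus strand at chr3:90212728-90213615 and Rps27l on the plus strand at chr9:66946175-66949354, each with its coding bases in 4 exons.
Rps27: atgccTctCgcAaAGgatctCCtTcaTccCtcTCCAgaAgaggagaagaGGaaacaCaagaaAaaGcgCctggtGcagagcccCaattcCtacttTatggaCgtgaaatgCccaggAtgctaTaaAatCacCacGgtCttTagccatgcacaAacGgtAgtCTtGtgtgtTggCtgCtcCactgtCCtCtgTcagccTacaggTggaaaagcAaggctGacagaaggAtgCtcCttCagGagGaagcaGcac
Rps27l: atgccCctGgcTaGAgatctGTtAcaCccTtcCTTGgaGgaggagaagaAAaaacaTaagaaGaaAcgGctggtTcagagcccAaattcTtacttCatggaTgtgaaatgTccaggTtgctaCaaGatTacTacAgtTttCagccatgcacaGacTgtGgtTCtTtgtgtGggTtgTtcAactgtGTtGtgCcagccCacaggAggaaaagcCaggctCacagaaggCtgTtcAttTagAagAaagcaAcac
Of 252 coding bases 60 differ, which leaves 76.2% identical. Rpl39, a protein of the tunnel through which new peptides leave, lies on the minus strand at chrX:37082704-37085127 with 3 coding exons, and Rpl39l on the plus strand at chr16:10174310-10174462 with its coding bases in 1 exon.
Rpl39: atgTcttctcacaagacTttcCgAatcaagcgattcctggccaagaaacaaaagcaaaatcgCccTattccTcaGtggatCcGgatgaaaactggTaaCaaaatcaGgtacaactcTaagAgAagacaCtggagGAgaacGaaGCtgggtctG
Rpl39l: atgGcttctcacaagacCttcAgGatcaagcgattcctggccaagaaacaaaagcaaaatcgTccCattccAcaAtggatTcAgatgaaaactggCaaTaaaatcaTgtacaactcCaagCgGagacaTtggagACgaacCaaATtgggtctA
In this pair 23 of 153 coding bases differ, and 85.0% are identical. How reads that fit both copies were counted is not stated in what was read here.

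Rpl39l was highest in Xist-low Ptprc-low cells in every library. It was at 252 and 235 CPM in these cells of tumour NanoCa and mock and at 220 and 263 in those of TDLN. Immune classes were far lower, with 33.2 and 27.5 in tumour monocytes or macrophages, 72.5 and 61.3 in tumour T cells and 8.23 and 18.6 in TDLN T cells. At the estimated amount of free RNA, Rpl39l of the whole library would give 66.1 and 49.5 CPM in tumour T cells and 6.38 and 19.9 in TDLN T cells. Rpl39l was called lower in NanoCa in TDLN T cells (log2 -1.18, -1.41 to -0.95) and B cells (7.27 and 16.1 CPM, -1.15). Once free RNA was subtracted, 0 of 462 UMIs were left in T cells and 0 of 184 in B cells of TDLN mock, and 56 of 250 and 11 of 88 in those of TDLN NanoCa. In the tumour 11 of 123 were left in T cells of NanoCa and 32 of 165 in those of mock, and 15 of 86 and 12 of 67 in B cells. The whole libraries held 69.9 CPM in TDLN NanoCa and 153 in TDLN mock, with 331 and 1033 Xist-low Ptprc-low cells among them. The part of free RNA in these differences of Rpl39l was not tested beyond this subtraction, which rests on the carcinoma markers Krt8, Krt18 and Rhox5. For TDLN mock, Krt8 stood at 4.56 CPM among T cells, 0.82 for the Xist-low Ptprc-low class and 567 among unnamed cells. Krt18 (8.15 for T cells, 26.5 for that class) and Rhox5 (19.1 and 356) had the reverse order. The 0 UMIs left in TDLN mock are therefore uncertain, as is their contrast with TDLN NanoCa. Whether keratin RNA of other cells raised the estimate was not tested. Rpl39 itself had 4054 and 5346 CPM in tumour T cells and 3650 and 4720 in tumour Xist-low Ptprc-low cells.

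**Figure D5:**
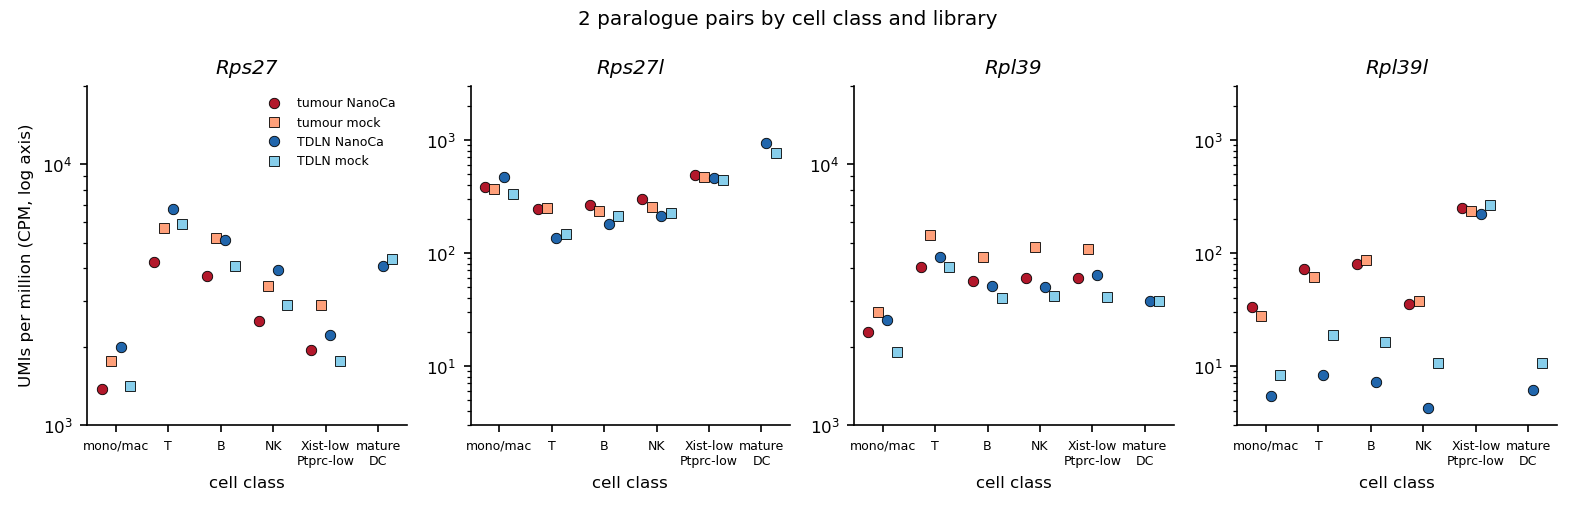
Level of Rps27 and Rps27l and of Rpl39 and Rpl39l (y axes, CPM, log scale; Rps27 and Rpl39 share a scale, as do Rps27l and Rpl39l) by cell class in the 4 libraries. With all UMIs as the total, Rps27 is highest in T cells and Rps27l in mature DC (945 and 768) in both TDLN libraries. Rpl39l is highest in Xist-low Ptprc-low cells (220 to 263).

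The other members named for a wide spread were Rps14, Rps24 and Rps13 in the tumour and Rps2, Rps19, Rps14 and Rpl12 in TDLN. Rps14, Rps24 and Rps13 were low in tumour Xist-low Ptprc-low cells, with 6257, 19761 and 9430 member CPM in NanoCa against 10534, 32766 and 15366 in T cells. The highest class was T cells for Rps24 and Rps13 but monocytes or macrophages for Rps14, with 11406 in NanoCa and 11089 in mock. The spreads of the 3 members were 1.82, 1.66 and 1.63-fold in NanoCa and 1.83, 1.65 and 1.58-fold in mock. Rps2, next to the channel where mRNA enters, went the other way in TDLN. It had 25297 and 21225 in Xist-low Ptprc-low cells against 12922 and 11263 in T cells and 10037 and 8524 in mature DC. Rps19, the member most often mutated in Diamond-Blackfan anaemia, was at 36898 and 33860 in mature DC and at 12078 and 12754 in NK cells of TDLN. Rpl12 was lowest in mature DC, with 2669 and 3607 against 7077 and 7835 in T cells. The highest and the lowest class of each of these 6 members were the same in both libraries of the tissue.

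By rule, the genes outside the set most like a member were those with the highest Spearman's rho of CPM over the 22 profiles (11 classes in 2 libraries), out of 8422 genes. For Rps10 this was Bod1l (rho 0.91). Rps29 was nearest to Rps27rt, a retrogene copy of Rps27 (0.79). Rpl39l was nearest to Tm4sf1 and Hmga2 (0.99 and 0.98) and Rps2 to Fkbp4 and Nop14 (0.96 for both). The profiles share cells' class and library, so a high rho says that 2 genes have like levels across these and no more.

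Other genes of the ribosome and of its making were read as lists, chosen with earlier results of these data known. Among ribosomal protein genes outside the rule, Rps27rt was called in several classes, and Rpl7l1 (TDLN NK cells) and Rpl36al (TDLN mature DC) in 1 class each. Rps27rt had 18.9 and 37.5 in tumour T cells (-0.99) and 24.3 and 15.8 in TDLN T cells (0.62), with the signs of the short members. Rps3a1, Fau and Rack1, abundant members of the same list, were called in no class. Of 16 translation factors and related genes with such tracts, Eif3f, a subunit of initiation factor 3, was called higher in NanoCa in 4 of 5 tumour classes, with 825 and 542 CPM in T cells (0.61), and no gene was called lower in any of the 11 comparisons of NanoCa and mock. In TDLN monocytes or macrophages 1 of the 16 was called higher. Of 38 genes of ribosome biogenesis, none was called in tumour monocytes or macrophages, T, B or Xist-low Ptprc-low cells, nor in TDLN T, B or Xist-low Ptprc-low cells. In tumour NK cells 1 of 31 tested was called lower, where 7.68% of all genes were called in either direction. In TDLN 1 of 32 was called lower in NK cells (5.69% of all genes). In TDLN monocytes or macrophages 2 of 36 were called higher. Mature DC had 1 of 13 called in each direction (4.81% of all genes lower). Among 13 regulators, Myc, which drives transcription of ribosomal genes, had 202 CPM in NanoCa and 125 in mock in TDLN B cells (0.70) and 232 and 148 in tumour NK cells (0.65). It was the 1 call among 13 and 9 regulators tested there, and 7.68% of all genes were called in tumour NK cells. Other regulators were called in TDLN. In T cells 1 of 13 tested was called lower, in NK cells 1 of 9 and in mature DC 1 of 9, where 7.86%, 5.69% and 4.81% of all genes were. In mature DC 1 was also called higher, and 1 of 12 was in monocytes or macrophages. The share of all genes called higher in TDLN is not given here, so Myc in B cells and the other higher calls have none beside them. The 78 mitochondrial ribosomal protein genes had median log2 ratios of -0.10 in TDLN T cells and -0.24 in TDLN B cells, beside medians over all genes of -0.0025 and -0.021. In TDLN NK cells 10 of 65 tested were called lower, with a median of -0.34, where 5.69% of all genes were called lower and the median over all genes was 0.032.

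A few members were hardly expressed. Rpl10l, an intronless copy of Rpl10 used in male germ cells, had 0 UMIs in all 4 libraries. Rpl3l, the form of Rpl3 in heart and skeletal muscle, had 22, 28, 28 and 15 UMIs in the tumour (NanoCa, mock) and in TDLN (NanoCa, mock), where Rpl3 had 434231, 385025, 208898 and 279868. Rps4x, the X-linked form, had 7255 and 7219 CPM in the tumour libraries and 6344 and 6332 in those of TDLN.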

How the data were processed

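Single-cell RNA-seq was analysed from 4 libraries, 1 per group, with total counts of 74909974 to 167924801 UMIs. The deposited files hold raw UMI counts per gene and barcode, written by Cell Ranger 7.1.0 per the file headers. No source used here gives the genome build. Barcodes with under 200 genes or over 10% mitochondrial UMIs were left out, and Scrublet scores (scanpy 1.11.5) removed 0.8% of barcodes per 1000 as doublets. Cells of each tissue were clustered (2000 variable genes without members, 30 components, 15 neighbours, Leiden resolution 1.0) and clusters were named from at least 3 markers. The class low in Xist and Ptprc, at most 20% of the immune median, was defined after the data were seen, as were the coding-length measure, its limits of 300 and 600 nt, and the unnaming of a tumour cluster led by S100a9. Raw counts were summed per class and library (Python 3.11.15, scipy 1.17.1). With 1 library per group no test across samples was possible. The calling script was tested on simulated data.

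Members and lists were chosen with earlier results of these data known. Named members are the 4 highest and 4 lowest departures in the 3 largest classes of a tissue, the 6 widest spreads, the 4 most extreme in each direction between tissues, listed paralogue pairs, members under 50 UMIs and any member called. A few genes are not reported here. Alternatives covered filters, doublets, resolution, depth, free RNA, the denominator, scaling, the fold limit and cluster makeup. Gene coordinates are from GRCm38 annotations matched by identifier or symbol, not from the files.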

Additional observations from a re-analysis of the deposited data

Results flagged for a closer look

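The NanoCa to mock ratio of the ribosomal share had opposite signs in the tissues in 2 classes. It was -0.0359 (log2) in tumour B cells and 0.0031 in TDLN B cells, and -0.0679 in tumour and 0.0435 in TDLN Xist-low Ptprc-low cells. Among single members, 15 lay below the members' median in every tumour class and above it in every TDLN class, and 8 did the opposite. No such count over all genes stands beside them. These differences between tissues were not tested, since each group has 1 library.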

How the results depend on the processing

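No paired analysis was possible because each group has 1 library, and no replicate could be left out. The median log2 ratio of the ribosomal share of NanoCa to mock over the tumour classes was -0.0537, and it was -0.0088 with doublets kept, -0.0379 with cells thinned, -0.0369 as a mean of single-cell shares and -0.0686 at the same cluster makeup. In TDLN it was -0.0053 and changed sign to 0.0033 at resolution 0.5, 0.0019 with free RNA subtracted and 0.0132 without clusters high in Malat1 (chosen after seeing the data). It was -0.0212 with doublets kept, -0.0197 thinned and -0.0222 as a mean of single-cell shares. For tumour to TDLN the NanoCa pair had 0.1178, and 0.0516 with doublets kept, 0.1062 at 5% mitochondrial UMIs, 0.1640 thinned, 0.1120 with mitochondrial, immunoglobulin and hemoglobin UMIs left out, 0.1601 by single cells and 0.1200 without clusters high in Malat1. The mock pair had 0.2357, and 0.1628, 0.2665, 0.2283, 0.2692 and 0.2425 in the same order without the mitochondrial limit, and 0.1523 with free RNA subtracted.

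Single classes that changed sign were tumour B cells (0.0263 with doublets kept, 0.0040 with free RNA subtracted), TDLN monocytes or macrophages (-0.0335 with doublets kept), TDLN B cells (-0.0097 thinned, -0.0128 by single cells, -0.0142 at the same makeup) and TDLN T cells (0.0021 at the same makeup). Between tissues these were monocytes or macrophages (-0.2601 in NanoCa and -0.3069 in mock with doublets kept, -0.0930 in NanoCa with free RNA subtracted), T cells of NanoCa (0.0497 thinned, 0.0620 by single cells) and T cells of mock (-0.0129 with doublets kept, -0.0075 with free RNA subtracted). The median rho of coding length in the NanoCa pair was -0.0011 with free RNA subtracted.

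Members called over the tumour classes numbered 1, and 3 with doublets kept or TMM scaling, 2 at 5% mitochondrial UMIs, thinned, with free RNA subtracted, at 10 UMIs or at the same makeup, and 40 at the lower fold limit. Departing tumour members numbered 1, and 6 with doublets kept, 2 thinned, with free RNA subtracted or at 10 UMIs, 0 at the same makeup and 41 at the lower fold limit. In TDLN 18 were called and 20 departed, and 69 and 40 at the lower fold limit. Between tissues 10 departed in the NanoCa pair (19 with doublets kept, 17 thinned, 6 with free RNA subtracted, 55 at the lower fold limit) and 22 in the mock pair (78 at the lower fold limit). No share over all genes is given for these alternatives or these summed departures. The counts are therefore not read against genes at large. Members spread at least 1.5-fold over classes numbered 8 in the tumour (18 with free RNA subtracted) and 29 in TDLN (19 at resolution 0.5 and 19 without clusters high in Malat1, both of which gave no value for mature DC). The cause of these changes was not tested. Of the departures of named members, 739 values moved little, 93 moved more and 0 changed the sign of a departure past 1.5-fold. Counting error is small at this depth, and the missing replicates are the limit.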

Other observations

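An unnamed tumour cluster had a higher ribosomal share of its summed UMIs than any class compared, 43.4% in NanoCa (496 cells) and 41.8% in mock (507 cells). Its leading genes were Hbb-bs, a beta globin, and the mast cell proteases Cma1 and Mcpt4. Its cells had a median of 1035 UMIs and a median share of 26.9%, well under the share of its summed UMIs. An unnamed TDLN cluster led by the myeloid genes Lyz2, Fabp4 and Ctsk held 28.3% in NanoCa (310 cells) and 32.2% in mock (596 cells) of summed UMIs, with a median share of 21.4% over its cells at a median of 784 UMIs. The tumour cluster led by S100a9 and S100a8 held 27.2% and 26.8%. Another unnamed tumour cluster, with Malat1 at 10477 CPM, held 12.6% and 10.9%.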
